A study of Rattus norvegicus with 22 samples.

Results

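The comparison described here set rats with Severe PE against rats with Mild PE, 18 h after pulmonary embolism (PE). It asked how lung gene expression differed with the larger dose of microspheres. It used 8 of the 22 arrays of the study, which were all those labelled with either microsphere dose at 18 h: 4 rats with Mild PE and 4 with Severe PE, 1 array per rat. Polystyrene microspheres of 25 micron were injected into the right jugular vein, 1300000 per 100 g body weight for Mild PE and 2000000 for Severe PE. The injected volume was 0.10 ml per 100 g for Mild PE and 0.15 ml per 100 g for Severe PE, so the number of microspheres and the volume cannot be told apart. The rats were male Sprague-Dawley rats of about 350 g. The lungs were lavaged with 8 ml of saline before they were taken out, and RNA came from whole lung tissue. Another 3 rats received 0.15 ml of 0.01% Tween 20 per 100 g and were killed at 18 h (Vehicle), and their values are given with no test, as the level without embolism. Microspheres are inert beads and not clots, so the model carries the obstruction of the vessels without the fibrin and the platelets of a thrombus. The paper states that the right ventricular pressure of the 18-h rats was not measured. In later studies that it cites, the mean pressure at 18 h was alike in Mild PE and Severe PE.

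Microspheres lodge in small pulmonary arteries and stop the flow beyond them. The lung tissue is then deprived of its pulmonary arterial supply while the bronchial circulation and the airways still bring oxygen. The lung holds the endothelium of the vessels, an alveolar epithelium that makes surfactant and clears fluid, airway cells that secrete mucus and defence proteins, and resident and incoming leukocytes. All secreted and membrane proteins of these cells pass through the endoplasmic reticulum (ER), where chaperones fold them, and cells with a greater load of unfolded proteins are known to raise these chaperones.

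Values below are log2 signals of a probeset (a set of probes for 1 transcript) after normalization, and a difference is the mean of Severe PE minus the mean of Mild PE on that scale, so that 1 stands for 2-fold. A signal under 16 was set to 16, which is 4 on this scale and is called the floor. A probeset was called when its p, adjusted by Benjamini and Hochberg, was under 0.05 and the doses differed 1.5-fold or more. A gene is represented by its probeset of highest mean signal. Levels of different genes are not comparable on this array. RNA of whole tissue does not tell fewer cells of a type from less RNA per cell.

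None of the 31042 probesets was called between Severe PE and Mild PE at 18 h (0%), and the smallest adjusted p was 0.0731. The methods' t-test called 0 as well. At an unadjusted p under 0.05, 4340 probesets (14.0%) differed, of which 778 were at least 1.5-fold higher and 815 at least 1.5-fold lower in Severe PE. In 1183 probesets every Severe PE rat lay above every Mild PE rat, and in 1301 every Severe PE rat lay below, 2484 in all. This number was 4177 without Mild PE rat 4 and 3771 without Severe PE rat 1. When 1 model was fitted to all 22 arrays, which takes the spread from all 6 groups of the study, 326 probesets (1.05%) were called, 167 higher and 159 lower. In 300 of these 326 the rats of the doses did not overlap, against 2484 of the 31042 probesets in all. These 326 were called for their differences between the same rats, so the separation gives no independent support for the calls. The size of the groups, 4 rats each, limits the precision of every value, and an exact permutation test of a single gene in 4 against 4 rats cannot give a two-sided p below 0.0286.

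The Mild PE rats were not alike. Mild PE rat 4 lay between the other Mild PE rats and the Severe PE rats in many of the genes below. Without it, 80 probesets (0.258%) were called, 52 higher and 28 lower, of which 35 were also called in the fit on all 22 arrays. In array quality, the signal of the 3′ probes of Gapdh over the 5′ probes was 0.20 to 0.21 on the log2 scale in Mild PE rats 1 to 3, 0.49 in Mild PE rat 4 and 0.19 to 0.32 in Severe PE, and 14.4% to 16.6% of the probesets of an array were under the floor. The 3′ signal of Gapdh itself was 13.97 to 14.13 in Mild PE and 14.40 to 14.53 in Severe PE, so this reference transcript also differed with the dose. The part of these values in the results was not tested.

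Of the 14217 genes, 8.04% were higher and 9.26% lower in Severe PE at an unadjusted p under 0.05. The rats did not overlap in 4.90% of genes in the higher direction and in 5.75% in the lower direction. In the fit on all 22 arrays 0.739% of genes were called in each direction. Without Mild PE rat 4, 9.10% were higher and 9.21% lower at an unadjusted p under 0.05. These shares are the background for the gene groups below, none of which had a member that passed the adjusted test on the 8 rats. The 3 lists chosen after values were seen (translocon, mucous and serous cells, fat) cannot be judged against them, and their counts are descriptions. Without Mild PE rat 4, the numbers of higher genes given below became 20 of 24 for the ER chaperones and 22 of 26 for the translocon. They were 10 of 17 for both the cholesterol enzymes and the mucous and serous cells. For the acute phase the number was 8 of 15 and for the cell cycle 12 of 27. The number of lower genes became 5 of 10 for muscle and 5 of 14 for fat.

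Genes of protein folding in the ER were higher in Severe PE. Of 24 chaperones and genes of the unfolded protein response, 18 were higher and 1 was lower at an unadjusted p under 0.05, the rats did not overlap in 12, and the median difference was 0.42 against 0.00 over all genes. The promoters of 5 of them are shown first, because many of these genes share a control element that can be read in the sequence. The ER stress element, CCAAT followed by 9 bases and CCACG, is known as the site through which ATF6 and NF-Y act when unfolded proteins accumulate. It was searched on both strands in the 300 bases from 250 before to 50 after the transcription start of each gene in RefSeq (assembly GRCr8). It was found in 21 of 27457 promoters (0.0765%) and in 7 of the 19 promoters matched to this list (36.8%), those of Calr, Canx, Creld2, Dnajc3, Hsp90b1, Hspa5 and Xbp1. The CCAAT letters alone were in 18 of the 19 promoters (94.7%), in 11 of 14 promoters of cholesterol enzymes (78.6%) and in 37.7% of all. A match of letters is a description and not a binding site that was measured here. The share describes which genes are on the list, and a part of the element in the difference between doses was not tested. Stretches of 100 bases are given 5′ to 3′ in the direction of transcription, with the element in capitals, which in Creld2 lies on the other strand and reads as its reverse complement. They lie at chr3:38452916-38453015 on the plus strand (Hspa5), chr15:102432494-102432593 on the plus strand (Dnajc3), chr7:121789199-121789298 on the plus strand (Creld2), chr7:23012410-23012509 on the minus strand (Hsp90b1) and chr14:84604518-84604617 on the plus strand (Xbp1).
Hspa5: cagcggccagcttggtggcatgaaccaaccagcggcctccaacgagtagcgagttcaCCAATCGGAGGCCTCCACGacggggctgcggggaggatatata
Dnajc3: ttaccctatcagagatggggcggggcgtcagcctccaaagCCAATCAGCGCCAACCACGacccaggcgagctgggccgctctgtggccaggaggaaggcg
Creld2: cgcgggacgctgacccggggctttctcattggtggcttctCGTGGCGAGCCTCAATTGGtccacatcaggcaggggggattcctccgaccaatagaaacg
Hsp90b1: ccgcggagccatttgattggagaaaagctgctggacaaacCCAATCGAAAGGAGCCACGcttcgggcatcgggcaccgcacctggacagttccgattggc
Xbp1: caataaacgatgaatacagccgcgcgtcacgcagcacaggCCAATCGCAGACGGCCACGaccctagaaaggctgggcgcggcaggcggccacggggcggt

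These 5 genes did not differ by the same amount between the doses. Dnajc3, a co-chaperone that also restrains the kinase PERK, was 8.38, 8.45, 8.04 and 8.78 in the Mild PE rats and 9.14, 9.19, 9.12 and 9.27 in the Severe PE rats. The difference was 0.77 (SE 0.15), and Vehicle rats were at 7.63 to 8.07. Creld2, an ER protein secreted under stress, was 11.34, 11.43, 11.12 and 12.02 in Mild PE and 12.43, 12.23, 12.15 and 12.44 in Severe PE. All Severe PE rats were above all Mild PE rats in both genes, and Mild PE rat 4 was the highest of its group in both. Dnajb11, a co-chaperone of Hspa5, had the largest difference of the list, 0.93 (SE 0.18), with 10.00 to 10.87 in Mild PE and 11.11 to 11.44 in Severe PE. Dnajc3, Creld2 and Dnajb11 were called in the fit on all 22 arrays.

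Hspa5 (BiP), the main chaperone of the ER, was 13.17, 13.08, 12.80 and 13.61 in Mild PE and 13.46, 13.82, 13.55 and 13.71 in Severe PE. The doses overlapped in it because Mild PE rat 4 was above Severe PE rats 1 and 3, and the difference was 0.47 with a 95% interval of 0.05 to 0.89. Hsp90b1 (GRP94), the ER form of Hsp90, differed by 0.43 (SE 0.10) without overlap of the rats. Calr, a lectin chaperone, differed by 0.27 (SE 0.07). Xbp1, whose spliced form drives the genes of ER expansion, did not follow them: it was 13.60 to 13.68 in Mild PE and 13.62 to 13.74 in Severe PE, a difference of 0.04 with an interval of -0.06 to 0.13. The array does not separate the spliced form from the unspliced form. Ddit3 (CHOP), the transcription factor of prolonged ER stress, was lower by 0.26 in Severe PE, with 8.74 to 9.06 in Mild PE and 8.51 to 8.80 in Severe PE.

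Another set of the same compartment, chosen after its values were seen, held the 26 genes that carry new proteins into the ER, cut off their signal peptides and attach their sugar chains. In this set 21 genes were higher at an unadjusted p under 0.05, none was lower, the rats did not overlap in 17 and the median difference was 0.31. Because of how the set was chosen, these counts only describe its members and give no support for a difference of the pathway. Hm13, the signal peptide peptidase, was 11.41, 11.42, 11.26 and 11.26 in Mild PE and 12.22, 12.15, 12.05 and 12.05 in Severe PE. The difference was 0.78 (SE 0.06, adjusted p = 0.0731), and all 3 of its probesets had this direction. Ssr2, a subunit of the complex that sits beside the translocon, was 11.85, 11.96, 11.66 and 11.85 in Mild PE and 12.52, 12.44, 12.41 and 12.31 in Severe PE. Magt1, a subunit of the oligosaccharyl transferase and a magnesium transporter, differed by 0.74 (SE 0.09, adjusted p = 0.0944). Sec61b, a subunit of the channel itself, was 12.19 to 12.35 in Mild PE and 12.54 to 12.62 in Severe PE, a difference of only 0.30 (SE 0.04) but with no overlap. At the other end, Spcs1 and Srp14 differed by 0.00 and 0.02. None of the 24 promoters matched to this set held the ER stress element, and none of the 14 promoters matched to the cholesterol enzymes did.

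**Figure D1:**
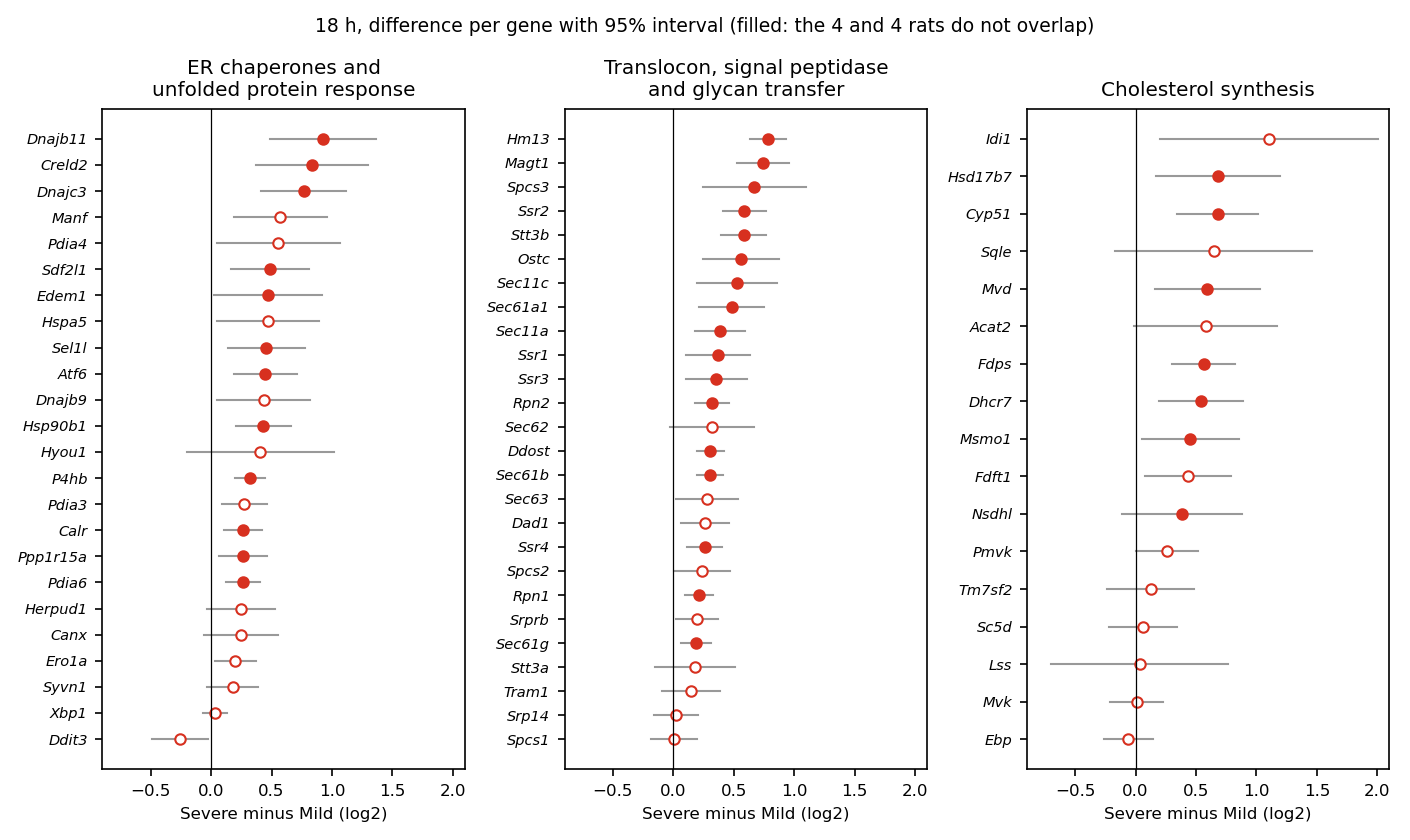
Difference of Severe PE minus Mild PE at 18 h (log2, horizontal axis) for each measured gene of 3 lists, with its 95% interval. Filled points are genes in which the 4 Severe PE and the 4 Mild PE rats do not overlap, 12 of 24 ER genes, 17 of 26 translocon genes and 7 of 17 cholesterol genes. The translocon list was chosen after its values were seen.

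Transcripts of mucous and serous airway cells were higher in Severe PE as well, but those of club cells were not. Of 5 measured markers of club cells, none was higher and 2 were lower at an unadjusted p under 0.05. Their median difference was -0.38. In a list of 17 measured genes of mucous and serous cells, chosen after values were seen, 10 were higher at an unadjusted p under 0.05, none was lower, and the rats did not overlap in 8. Bhlha15 (Mist1), the transcription factor that builds the secretory apparatus of professional secretory cells, was 6.22, 6.10, 6.48 and 7.11 in Mild PE and 8.03, 8.32, 8.15 and 8.03 in Severe PE. The difference was 1.66 (SE 0.22, adjusted p = 0.0944), and Vehicle rats were at 6.32 to 6.52, beside the Mild PE rats. Spdef, the transcription factor of goblet cell differentiation, was 7.27, 7.21, 7.02 and 6.98 in Mild PE and 8.08, 8.25, 8.11 and 7.92 in Severe PE (difference 0.97, SE 0.10, adjusted p = 0.0731). Its Vehicle rats were between the doses, at 7.56 to 7.75. Slc26a4 (pendrin), an anion exchanger of the airway surface, was 6.87, 7.07, 6.87 and 8.62 in Mild PE and 9.51, 9.78, 9.12 and 9.88 in Severe PE. Bhlha15, Spdef, Slc26a4, Slc44a4 (difference 0.71) and B3gnt7 (difference 1.02) were called in the fit on all 22 arrays.

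The mucins themselves did not move together. Muc5b, the secreted mucin of the normal airway, was 10.07, 10.11, 9.89 and 10.43 in Mild PE and 10.79, 11.16, 11.39 and 11.85 in Severe PE. The doses did not overlap in it, but 2 of the 3 Vehicle rats, at 11.11 and 11.52, were as high as Severe PE. Muc1, a mucin of the cell membrane, was 12.58 to 12.77 in Mild PE and 13.09 to 13.20 in Severe PE. Muc5ac, the mucin of goblet cells, was at the floor in 2 Mild PE and 3 Severe PE rats, and Agr2, the ER enzyme that folds mucins, had a difference of 0.47 with overlapping rats. Reg3b, an antibacterial lectin, was 6.49 to 7.19 in Mild PE and 8.06 to 8.62 in Severe PE, against 5.55 to 6.45 in Vehicle. Of the other secreted products with no overlap, Fetub, a protease inhibitor, was 11.91, 11.90, 11.81 and 12.66 in Mild PE and 13.33, 13.18, 13.09 and 13.36 in Severe PE.

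**Figure D2:**
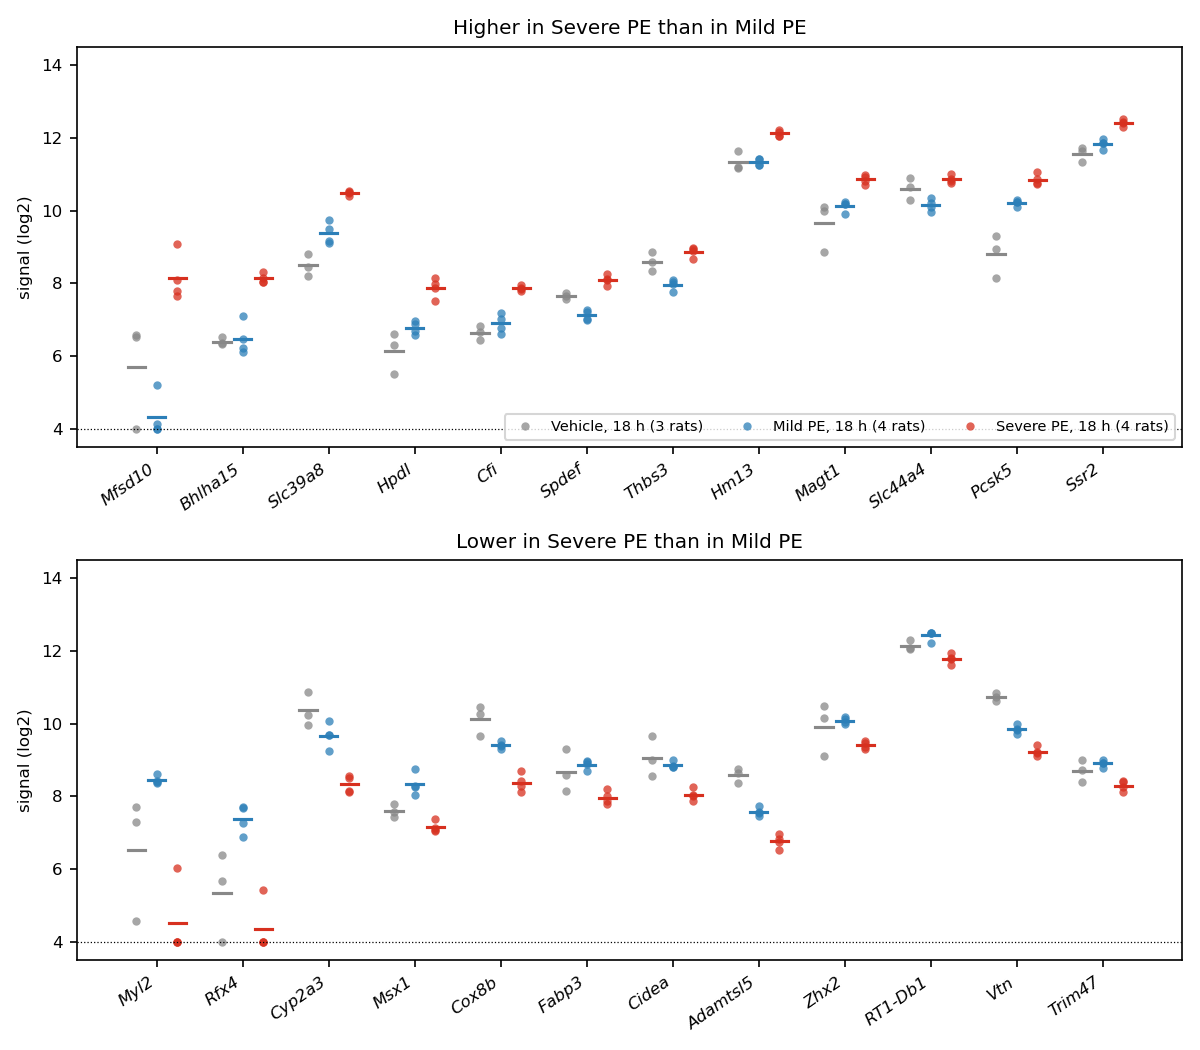
Signal (log2, vertical axis) of each 18-h rat for the 12 higher and the 12 lower genes with the smallest p among those whose rats did not overlap, with a difference of at least 1.5-fold and a mean of at least 7 in the higher group. Bars are group means and the dotted line is the floor at 4. The genes were chosen for the separation of the red from the blue points, and the grey Vehicle points lie beside Mild PE in some genes and beside Severe PE in others.

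Genes of both panels were chosen for separated doses and for their level in the higher group, so their lower group may be at the floor. Mfsd10, a membrane transporter in the upper panel, was 5.20 and 4.13 in Mild PE rats 2 and 3, at the floor in the other 2, and 7.80, 7.66, 8.09 and 9.07 in Severe PE. Vehicle rats were at 6.51, 6.56 and the floor, 2 of them between the doses and 1 with Mild PE. As 2 Mild PE rats were at the floor, its difference was at least 3.82. Thbs3, a matrix protein, differed by 0.91 (SE 0.10) with Vehicle rats nearer to Severe PE, at 8.33 to 8.87. Pcsk5, a convertase that cleaves secreted precursors, was 10.10 to 10.28 in Mild PE, 10.72 to 11.05 in Severe PE and 8.15 to 9.31 in Vehicle. Hpdl was 6.58 to 6.95 in Mild PE and 7.51 to 8.14 in Severe PE. In the lower panel, Zhx2, a transcriptional repressor, was 10.12, 10.05, 10.18 and 9.99 in Mild PE and 9.52, 9.30, 9.36 and 9.47 in Severe PE (difference -0.67, SE 0.07, adjusted p = 0.0731). Trim47 was 8.77 to 9.01 against 8.11 to 8.42, but only 1 of its 3 probesets had this direction. Another of them was higher in Severe PE by 0.59 without overlap of the rats. That probeset was called in the fit on all 22 arrays (adjusted p = 0.0133), so the direction of this gene is uncertain. Vtn (vitronectin) was 9.70 to 9.98 in Mild PE, 9.10 to 9.41 in Severe PE and 10.63 to 10.85 in Vehicle. Adamtsl5 had the same order, with Vehicle at 8.36 to 8.74, Mild PE at 7.46 to 7.73 and Severe PE at 6.53 to 6.96. In Rfx4, 3 of the 4 Severe PE rats were at the floor and Mild PE rats were at 6.88 to 7.71.

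In Fam111a and RT1-Bb, genes of very large difference, single rats did not follow their group. Fam111a was 4.84, 4.78 and 4.49 in Mild PE rats 1 to 3 but 9.32 in rat 4, against 9.68 to 10.94 in Severe PE, and the Vehicle rats were split as well, at 4.73, 8.51 and 5.38. RT1-Bb, a class II chain, was 8.10, 7.76 and 8.38 in Mild PE rats 1 to 3, at the floor in rat 4 and 11.71, 11.15, 12.06 and 8.43 in Severe PE, with Vehicle at 7.98, 10.99 and 11.99. A second probeset of RT1-Bb had the opposite direction. Both genes had values far apart within a group that was treated alike.

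Enzymes of cholesterol synthesis were on the higher side in Severe PE. Of 17 measured genes of a list of 20, 9 were higher at an unadjusted p under 0.05 and none was lower, the rats did not overlap in 7, and the median difference was 0.45. In the probesets that represent the 17 genes, none was called in the fit on all 22 arrays. In the list of sterol genes that the study named on these samples, 9 of 13 were higher, which is no independent evidence of the direction. Idi1, which makes the activated isoprene unit, was 8.36, 7.80, 6.92 and 8.22 in Mild PE and 8.73, 9.36, 9.27 and 8.34 in Severe PE. Its difference of 1.10 was the largest of the list, but the rats overlapped and the interval ran from 0.20 to 2.00. Cyp51, the lanosterol demethylase, was 10.93, 10.87, 10.33 and 10.84 in Mild PE and 11.33, 11.55, 11.41 and 11.41 in Severe PE (difference 0.68, SE 0.14). Fdps, the farnesyl diphosphate synthase, was 12.54, 12.44, 12.18 and 12.72 in Mild PE and 13.06, 13.03, 13.004 and 13.04 in Severe PE (difference 0.56, SE 0.11). Mild PE rat 3 was the lowest rat of its group in all 3 of these enzymes. Hsd17b7, a late enzyme of the pathway, differed by 0.68 (SE 0.21). Ebp, Mvk and Lss, enzymes of the same pathway, had differences of -0.06 to 0.03. The 3 probesets of Sc5d, which makes a late double bond of the sterol, differed in size. The one of highest mean had a difference of 0.06, a further one had 1.34 without overlap of the rats and was called in the fit on all 22 arrays (adjusted p = 0.0412), and the last was called without Mild PE rat 4, with a difference of 1.72 among the other 7 rats.

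The genes that sense, store and export sterol split by direction. Soat1, which esterifies cholesterol for storage, was 10.53, 10.58, 10.62 and 10.95 in Mild PE and 11.32, 11.31, 11.32 and 11.91 in Severe PE (difference 0.79, SE 0.17). Abcg1, which exports cholesterol and is a target of the liver X receptors, was 12.59, 12.47, 12.89 and 12.12 in Mild PE and 12.01, 11.46, 11.54 and 11.55 in Severe PE (difference -0.88, SE 0.19). Both were called in the fit on all 22 arrays. Mylip and Abca1, also targets of these receptors, had smaller differences in the direction of Abcg1, at -0.51 and -0.26. The receptor gene Nr1h3 was at -0.51. This direction was not shared by all targets, as Fasn was higher by 0.45 without overlap. Scd had a difference of 0.49 with overlapping rats. Insig1, which holds back the sterol-sensing transcription factors, had a difference of 0.55 without overlap. The gene of SREBP-2, Srebf2, had a difference of 0.18. Among 13 genes of fatty acid synthesis, 5 were higher and 1 was lower at an unadjusted p under 0.05. Fasn, the fatty acid synthase, was 13.18 to 13.41 in Mild PE and 13.50 to 13.85 in Severe PE. Fabp5, an epithelial fatty acid binding protein, was 12.66 to 13.34 in Mild PE and 13.83 to 13.92 in Severe PE (difference 0.90, SE 0.14).

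Acute phase proteins, which are made when interleukin 6 and glucocorticoids act together, were higher in Severe PE for 9 of 15 genes and lower for 1 at an unadjusted p under 0.05, and the rats did not overlap in 7 and 1. Orm1, an acid glycoprotein of plasma, had the largest difference, 2.92 (SE 0.40, adjusted p = 0.0944). It was 7.21, 7.55, 7.94 and 8.71 in Mild PE and 11.01, 10.54, 10.10 and 11.42 in Severe PE, while Vehicle rats were at 6.72 to 7.23. Mild PE rat 1 was within the range of Vehicle and Mild PE rat 4 was the nearest to Severe PE. Saa3, a serum amyloid A protein, was 9.37, 8.93, 9.08 and 9.66 in Mild PE, 11.45, 10.69, 10.73 and 11.53 in Severe PE and 6.57 to 7.60 in Vehicle, so that both doses were above Vehicle. A2m was 6.38 to 7.04 in Mild PE and 7.53 to 8.99 in Severe PE. Orm1, Saa3 and A2m were called in the fit on all 22 arrays. Fgg, the gamma chain of fibrinogen, differed by 1.09 (SE 0.21). Serpina3n, an inhibitor of neutrophil proteases, was 13.81 and 13.47 in Severe PE rats 1 and 4 but 11.09 and 11.11 in rats 2 and 3, against 9.68 to 11.09 in Mild PE. The same 2 rats were the highest of their group in Orm1, Saa3 and A2m. Serpina1, the alpha-1 antitrypsin, went the other way, with 9.46 to 10.07 in Mild PE, 7.80 to 9.05 in Severe PE and 9.94 to 10.47 in Vehicle. Hp, haptoglobin, had a difference of -0.03.

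Metal-binding proteins had the same order of the doses. Mt2A was 11.42, 11.23, 12.61 and 13.17 in Mild PE and 13.64, 13.74, 13.76 and 14.22 in Severe PE, against 9.09 to 9.91 in Vehicle. The spread within Mild PE was wide, and the difference was 1.73 (SE 0.46). Slc39a8, a zinc importer, was 9.17, 9.10, 9.48 and 9.75 in Mild PE and 10.51, 10.55, 10.41 and 10.48 in Severe PE (difference 1.11, SE 0.15, adjusted p = 0.0944). Mt1 was at the floor in Mild PE rat 1, 5.46 to 6.05 in the other Mild PE rats and 6.41 to 7.18 in Severe PE. Of 8 genes of metallothioneins and zinc transport, 4 were higher at an unadjusted p under 0.05 and none was lower.

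In the lists of complement and coagulation the share of higher genes was above that of all genes (8.04%). Of 14 complement genes 4 were higher (28.6%) and 1 was lower at an unadjusted p under 0.05, and without Mild PE rat 4 these numbers were 5 and 2. Of 19 coagulation genes 4 were higher (21.1%) and 1 was lower. The median differences were 0.13 and 0.20. Cfi, the protease that inactivates C3b, was 7.03, 6.60, 6.78 and 7.17 in Mild PE and 7.96, 7.78, 7.85 and 7.87 in Severe PE. F5, coagulation factor V, was 8.66, 8.76, 8.94 and 8.79 in Mild PE and 9.57, 9.86, 9.47 and 10.03 in Severe PE (difference 0.94, SE 0.14, adjusted p = 0.0944). F3, tissue factor, was 11.88, 11.56, 10.82 and 11.26 in Mild PE and 11.85, 12.39, 11.94 and 12.40 in Severe PE, with Vehicle at 10.01 to 10.22. Both doses were above Vehicle in F3 and overlapped with each other. Arg1, the arginase that competes with nitric oxide synthase for arginine, was 8.46, 8.42, 8.18 and 9.07 in Mild PE and 9.68, 10.08, 9.93 and 9.90 in Severe PE (difference 1.37, SE 0.20, adjusted p = 0.0944). It was 7.66 to 8.34 in Vehicle and was called in the fit on all 22 arrays.

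Of the genes of ion and water transport, 3 were higher in Severe PE without overlap of the rats, of 11 listed for alveolar fluid clearance. Aqp3, an aquaporin of the airway, was 7.32, 5.64, 6.33 and 7.09 in Mild PE and 7.42, 8.30, 9.31 and 9.26 in Severe PE. The nearest rats of the doses were 7.32 and 7.42, so that the separation was narrow while the difference was 1.98 (SE 0.55). Atp1b1, the beta subunit of the sodium pump, was 11.21 to 11.68 in Mild PE, 12.10 to 12.83 in Severe PE and 10.91 to 10.96 in Vehicle. Cftr, the chloride channel, was 5.73 to 6.02 in Mild PE and 6.14 to 7.58 in Severe PE, with Vehicle in between at 6.19 to 6.66. Aqp5, the aquaporin of type I cells, had a difference of -0.69 with overlapping rats. Fxyd1, a regulator of the sodium pump, was 10.53, 10.69, 10.56 and 9.70 in Mild PE and 9.31, 9.22, 9.20 and 9.30 in Severe PE (difference -1.11, SE 0.21).

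Genes of cell division were on the higher side. Of 27 genes of the cell cycle and DNA replication, 11 were higher and none was lower at an unadjusted p under 0.05, the rats did not overlap in 7 and the median difference was 0.38. None was called in the fit on all 22 arrays. Ccne1, cyclin E1, which starts the S phase, was 5.69, 5.22, 5.74 and 6.40 in Mild PE and 7.16, 7.25, 7.17 and 6.88 in Severe PE. Mki67, the marker of dividing cells, was 4.55 to 5.72 in Mild PE and 5.86 to 6.58 in Severe PE, and the Vehicle rats reached 6.36. Of the 6 subunits of the MCM helicase, Mcm6 had a difference of 0.65 and Mcm3 one of 0.08. Ccnd1, cyclin D1, had a difference of -0.34.

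On the lower side, transcripts of striated muscle, and in particular of the heart, had the lowest median of the 59 lists. All 10 measured genes of a list of skeletal and heart muscle were lower in Severe PE, 6 at an unadjusted p under 0.05 and 4 with no overlap of the rats, and the median difference was -0.90. Myl2, the ventricular myosin light chain, is not on this list. It was 8.60, 8.39, 8.42 and 8.36 in Mild PE, at the floor in 3 Severe PE rats and 6.02 in Severe PE rat 3. Vehicle rats were at 7.70, 4.56 and 7.28. Myh6, the alpha myosin heavy chain of heart muscle, was 11.70, 11.70, 11.85 and 11.94 in Mild PE, 10.78, 10.53, 11.10 and 11.30 in Severe PE and 11.50 to 12.63 in Vehicle. Tnnt2, the cardiac troponin T, was 9.03 to 9.70 in Mild PE and 7.75 to 8.41 in Severe PE, though the other of its 2 probesets had the opposite direction. Nppb, the natriuretic peptide of the stretched heart, was 6.69, 6.71, 7.01 and 7.04 in Mild PE, 5.24, 5.76, 6.03 and 4 (the floor) in Severe PE and 5.83 to 5.95 in Vehicle. The mean log2 signal of the 10 genes was 8.63 to 9.81 in Mild PE, 7.75 to 8.41 in Severe PE and 8.15 to 8.79 in Vehicle. On this measure 3 Mild PE rats were above all Vehicle rats and 2 Severe PE rats were below all of them. In rats, cardiac muscle is known to extend along the pulmonary veins into the lung. The part of such tissue in the other results was not tested.

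Some transcripts of fat tissue were lower as well. In a list of 14 measured genes chosen after values were seen, 5 were lower and 1, Fabp4 (difference 0.73), was higher at an unadjusted p under 0.05, and the rats did not overlap in the 5. Of the 5, Cox8b and Fabp3 are also transcripts of muscle. Cidea, a protein of lipid droplets in brown fat, was 8.83, 8.80, 8.80 and 9.01 in Mild PE and 8.03, 8.01, 7.88 and 8.25 in Severe PE (difference -0.81, SE 0.09, adjusted p = 0.0798). Cox8b, a subunit of cytochrome oxidase in muscle and brown fat, was 9.31 to 9.51 in Mild PE, 8.12 to 8.68 in Severe PE and 9.66 to 10.46 in Vehicle. Fabp3, the fatty acid binding protein of heart, was 8.68 to 8.98 in Mild PE and 7.79 to 8.21 in Severe PE. Pck1, an enzyme of glyceroneogenesis in fat, was 8.85, 8.74, 8.03 and 8.96 in Mild PE and 6.06, 6.25, 6.87 and 7.43 in Severe PE (difference -1.99, SE 0.35). Plin1, which coats the lipid droplet, had a difference of -1.13. Other transcripts of fat cells did not pass, with differences of -0.58 in Adipoq, the fat cell hormone, -0.24 in Lipe, a lipase, 0.11 in Cfd (adipsin) and 0.06 in Elovl3, and Lep (leptin) was at the floor in all 8 rats. Mean log2 signals of the 14 genes were 7.72 to 7.88 in Mild PE, 6.97 to 7.64 in Severe PE and 7.90 to 8.42 in Vehicle.

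**Figure D3:**
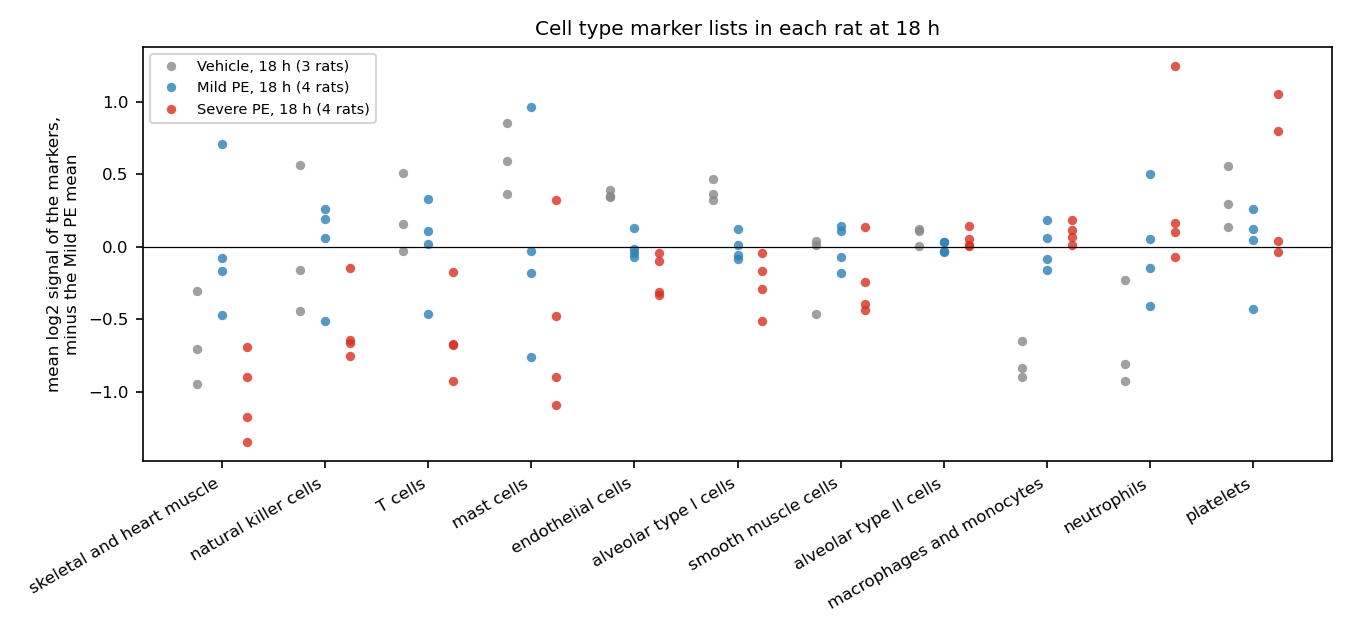
Mean log2 signal of the markers of each cell type in each 18-h rat, minus the mean of the Mild PE rats (vertical axis). In muscle all 4 Severe PE rats lie under all 4 Mild PE rats, while in T cells, natural killer cells, mast cells, endothelial cells, neutrophils and platelets the points of the doses overlap.

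Endothelial transcripts were lower for 5 of 16 markers and higher for 1 at an unadjusted p under 0.05. Kdr, the main receptor of VEGF-A, was 12.99, 12.89, 12.76 and 12.87 in Mild PE, 12.42, 12.57, 12.34 and 11.78 in Severe PE and 13.06 to 13.23 in Vehicle. Acvrl1 (ALK1), the endothelial receptor of BMP9 that is mutated in hereditary telangiectasia, was 12.63, 12.68, 12.86 and 12.66 in Mild PE, 12.16, 12.40, 12.19 and 11.64 in Severe PE and 13.12 to 13.28 in Vehicle. Bmp6 was 11.28 to 11.72 in Mild PE, 10.23 to 10.87 in Severe PE and 11.70 to 12.09 in Vehicle, a direction seen in 3 of its 4 probesets. Vegfa, made in the lung mainly by the epithelium, was 11.57 to 11.99 in Mild PE and 10.48 to 11.43 in Severe PE. Severe PE rat 4 was the lowest rat in all 4 genes. All 4 were called in the fit on all 22 arrays. Pecam1, a general endothelial marker, had a difference of 0.30 and Tie1 one of -0.15. The mean log2 signal of the 16 markers was 11.63 to 11.83 in Mild PE, 11.37 to 11.66 in Severe PE and 12.05 to 12.09 in Vehicle, so both doses were under Vehicle and overlapped with each other. In the list of BMP and TGF-beta signalling, 5 of 24 genes were lower and 2 were higher at an unadjusted p under 0.05. Inhba, the activin A subunit, was one of the higher with a difference of 0.94, though the other of its 2 probesets had the opposite direction. Spon2, a matrix protein, was 10.55, 10.27, 10.74 and 9.20 in Mild PE, 8.57, 8.45, 8.53 and 8.09 in Severe PE and 11.64 to 12.41 in Vehicle.

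Of 18 genes of antigen presentation, 5 were lower and 1 was higher in Severe PE at an unadjusted p under 0.05, and class II genes went both ways. RT1-Db1, a beta chain of the DR type, was 12.50, 12.50, 12.49 and 12.22 in Mild PE and 11.62, 11.94, 11.80 and 11.77 in Severe PE. The difference was -0.65 (SE 0.09, adjusted p = 0.0944), and both of its probesets had this direction. RT1-Da had a difference of -0.60 and Ciita, the transactivator of class II genes, one of -0.62. The other lower genes were RT1-DMb, at -0.45, and RT1-M3-1, a class I type gene, at -0.68. The higher one was RT1-Bb, described above. RT1-Ba had a difference of 1.03, Cd74, the invariant chain, one of -0.13 and RT1-DMa one of -0.26, and these 3 did not pass. Class II chains are polymorphic and similar to each other, and the values of single chains are uncertain. Markers of T cells were lower for all 10 genes and passed an unadjusted p under 0.05 for 3. Cd8a was 9.77, 10.74, 9.001 and 9.18 in Mild PE and 7.74, 8.29, 8.90 and 7.47 in Severe PE. Cd8b was 8.02 to 8.79 in Mild PE and 6.98 to 7.57 in Severe PE, while Cd4 had a difference of -0.60 with overlapping rats. In the list of natural killer cells, which shares the cytotoxic program, 4 of 9 genes were lower at an unadjusted p under 0.05 but only 1 without Mild PE rat 4, and the rats overlapped in all 9.

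Macrophage markers split, with 4 of 11 higher and 3 lower at an unadjusted p under 0.05, and 4 higher and 1 lower without Mild PE rat 4. Cd163, the haemoglobin scavenger receptor, was 6.41, 6.51, 7.02 and 7.18 in Mild PE and 7.35, 8.30, 7.93 and 8.62 in Severe PE. Mrc1, the mannose receptor, was 9.64 to 10.27 in Mild PE and 10.52 to 11.28 in Severe PE. Csf1r, the receptor of the macrophage growth factor, was 11.81 to 12.48 in Mild PE and 10.92 to 11.77 in Severe PE, and Adgre1 (F4/80) had a difference of -1.05 with overlapping rats. The mean log2 signal of the 11 markers was 10.69 to 11.04 in Mild PE, 10.87 to 11.04 in Severe PE and 9.96 to 10.20 in Vehicle. As a list, the macrophage markers were thus above Vehicle in both doses and did not separate them. None of the 9 neutrophil markers and none of the 7 platelet markers passed an unadjusted p under 0.05, with median differences of 0.31 and 0.46.

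Epithelial enzymes that handle foreign compounds were lower for 8 of 20 genes and higher for 1 at an unadjusted p under 0.05. Aox1, aldehyde oxidase, was 8.64, 8.09, 8.79 and 7.66 in Mild PE, at the floor in Severe PE rats 1 and 4, and 6.40 and 5.38 in Severe PE rats 2 and 3. Cyp2f4, a cytochrome of club cells, was 11.61, 10.94, 10.86 and 10.05 in Mild PE and 8.95, 8.93, 9.50 and 9.78 in Severe PE (difference -1.58, SE 0.36). Scgb1a1, the main secreted protein of the same cells, had a difference of -0.15, so the markers of club cells did not move together. Cyp2a3, a cytochrome of the airway, was 9.25 to 10.08 in Mild PE, 8.12 to 8.55 in Severe PE and 9.97 to 10.87 in Vehicle. Hsd11b2, which inactivates glucocorticoids, was 8.21, 7.63, 6.93 and 6.04 in Mild PE and 4.65, 6.01, 5.70 and 4 (the floor) in Severe PE. A list of 12 genes held targets of the glucocorticoid receptor, the receptor gene Nr3c1 and the enzymes Hsd11b1 and Hsd11b2. Of these 12, 3 were higher and 2 were lower at an unadjusted p under 0.05, but 1 was higher and 3 were lower without Mild PE rat 4. The 2 lower genes were Hsd11b2 and Sgk1, a target, which had a difference of -0.27 without overlap of the rats. Dusp1, another target, had a difference of -0.71 with overlapping rats. Of the 3 higher genes, Fkbp5 was 9.31 to 9.86 in Mild PE and 9.98 to 11.65 in Severe PE. Klf9 was 9.73 to 10.07 against 10.27 to 11.39 (a direction seen in 2 of its 3 probesets). Per1, also a clock gene, had a difference of 1.25 with overlapping rats. Tsc22d3 (GILZ), a target of the same receptor, had a difference of 0.46 with overlapping rats. All 9 measured markers of type I cells had differences below 0, of which Gprc5a, at -0.55 (SE 0.07), was without overlap. Of 11 markers of type II cells, 4 were higher (36.4%) and 2 were lower (18.2%) at an unadjusted p under 0.05, with a median difference of 0.10. Of the surfactant proteins, Sftpa1 had a difference of 0.21 and Sftpb one of 0.10, both without overlap of the rats. Sftpc, at -0.13, and Sftpd, at 0.01, had overlapping rats. Larger differences without overlap were those of Lamp3, at 0.93, and Etv5, at -0.72.

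Ccl2, Il6 and Tnf, which stood above Vehicle at both doses, did not separate the doses. Ccl2, the monocyte chemokine, was 13.06, 12.55, 11.41 and 12.52 in Mild PE, 11.59, 12.22, 12.89 and 10.02 in Severe PE and 7.35 to 7.77 in Vehicle. The difference was -0.71 with an interval of -2.27 to 0.86. Il6 was 6.73 to 8.66 in Mild PE, 6.56 to 8.70 in Severe PE and 4.16 to 4.51 in Vehicle, with a difference of -0.06 (interval -1.47 to 1.34). Tnf was 8.75 to 9.67 in Mild PE and 8.16 to 9.42 in Severe PE (interval -1.05 to 0.48), and Il1b had an interval of -1.12 to 0.24. Sele, E-selectin of activated endothelium, was 7.67 to 10.34 in Mild PE and 4.53 to 8.66 in Severe PE (interval -4.21 to 0.69). Both doses were above Vehicle in Ccl2, Il6 and Tnf. These intervals are wide, and a 2-fold difference between the doses lies within those of Ccl2, Il6, Tnf, Il1b and Sele. In the list of 13 CC chemokines 1 gene was lower, and of 13 CXC chemokines 1 was higher and 1 lower, at an unadjusted p under 0.05. Without Mild PE rat 4, 2 CXC chemokines were lower. Of 18 cytokines and genes of their feedback 1 was higher and 2 were lower. Il10, one of the lower, was 6.33, 6.60, 4 (the floor) and 6.21 in Mild PE and 4 to 4.64 in Severe PE. Vehicle rats were at 4 to 4.17. Its difference was -1.55 (interval -2.93 to -0.17) with overlapping rats. At 2 h it was called, with a difference of -2.68 (adjusted p = 0.0237). Of 15 genes of NF-kB and Toll-like receptor signalling none was higher and 4 were lower, with Tnfaip3, an inhibitor of the pathway, at -0.37.

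Genes of the basic machinery of the cell were near the background in some lists and above it in others. Of 18 cytosolic ribosomal proteins 1 was higher, with a median difference of 0.02. Of 30 genes of the respiratory chain 3 were higher and 1 was lower, with a median of 0.02. Of 18 cytosolic heat shock chaperones 1 was higher and 1 was lower, with a median of -0.01, and without Mild PE rat 4 these numbers were 3 and 1. Above the background of 8.04% were the aminoacyl-tRNA synthetases, which load amino acids on tRNA, with 5 of 18 higher (27.8%) and a median of 0.25, and the translation initiation factors, with 5 of 21 higher (23.8%) and a median of 0.23. Targets of ATF4 were higher for 6 of 19 genes (31.6%), but in none of them were all Severe PE rats above all Mild PE rats. Of 22 genes of the hypoxia response and glycolysis 6 were higher (27.3%) and 1, Vegfa, was lower at an unadjusted p under 0.05. Ldha, the lactate dehydrogenase of anaerobic glycolysis, had a difference of 0.44 and Car9 one of -0.50.

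**Figure D4:**
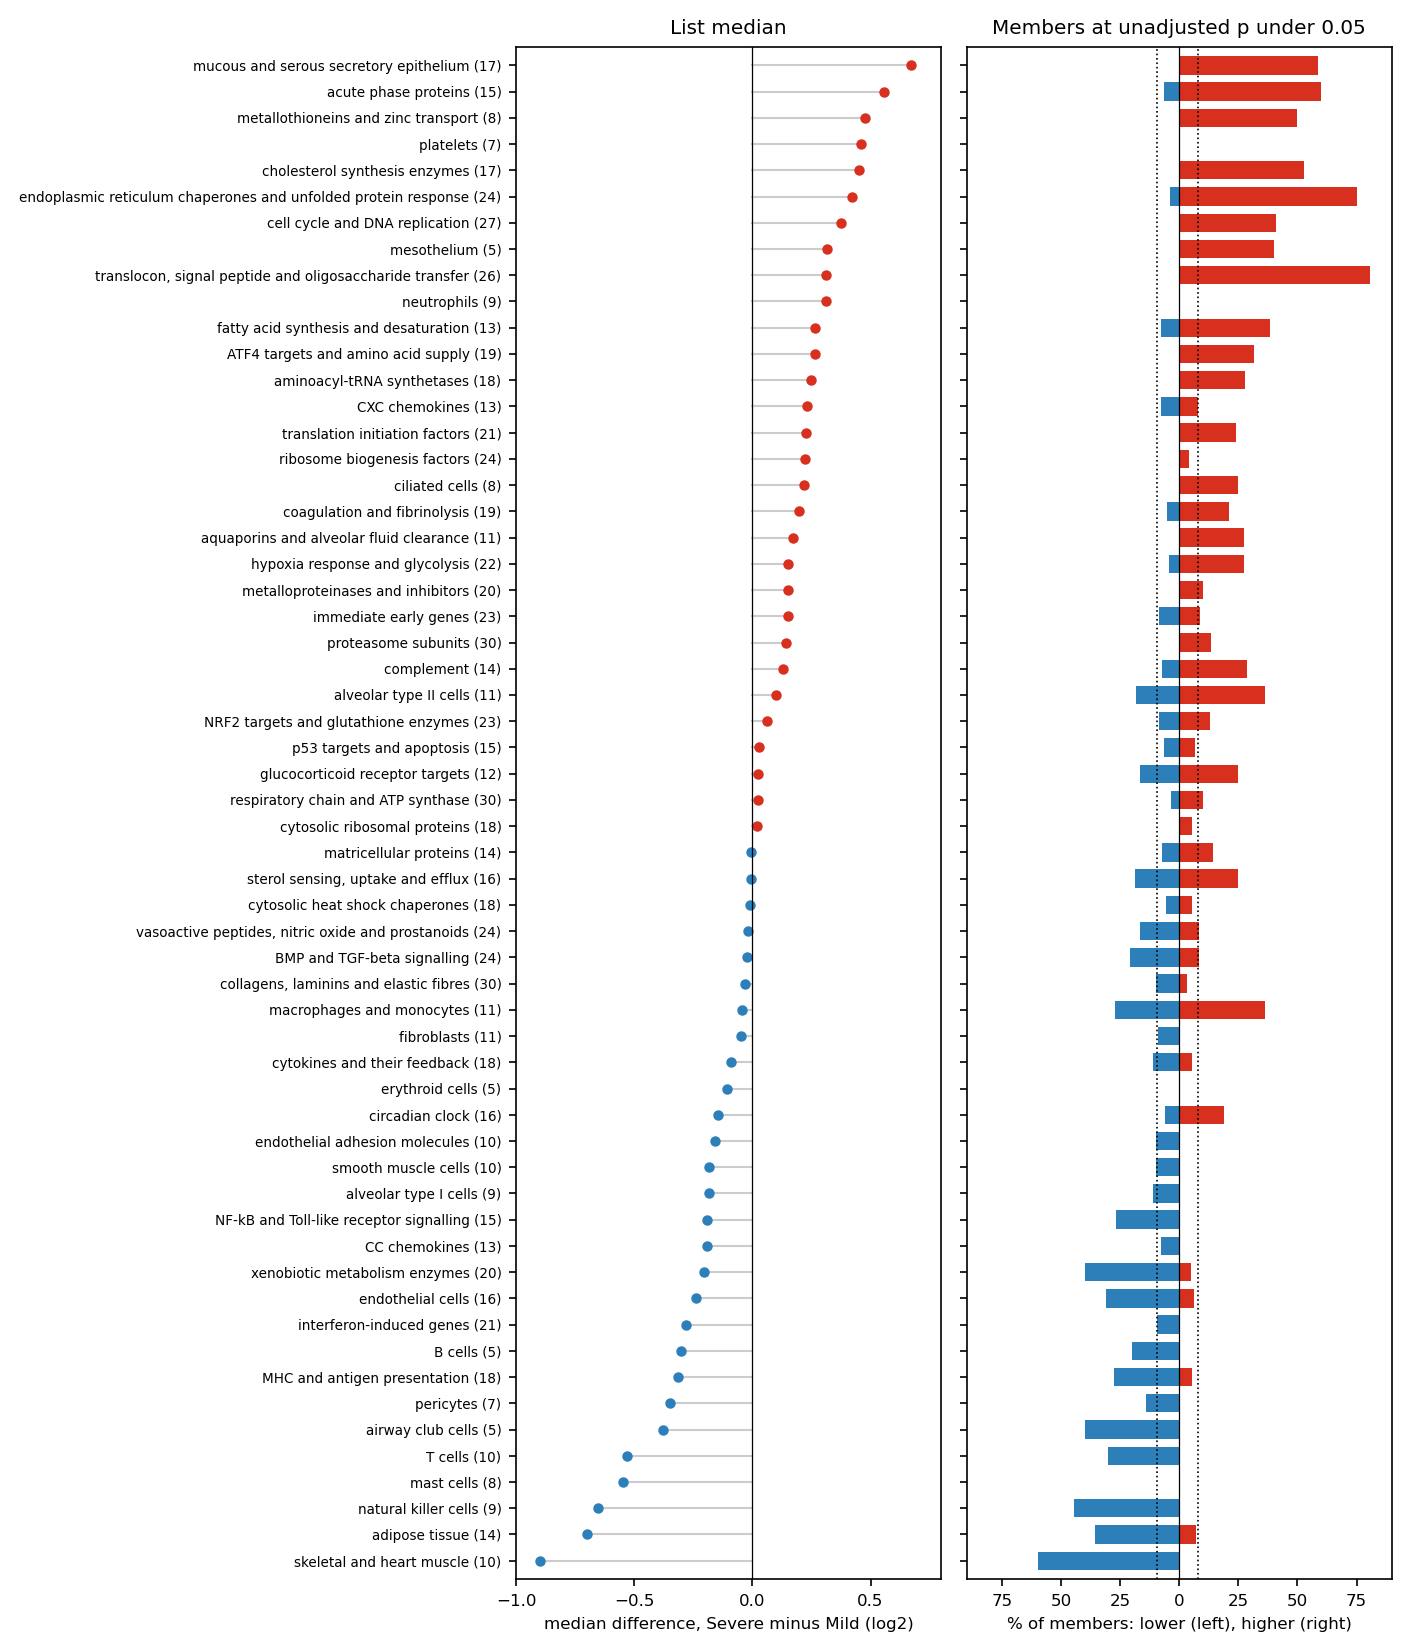
Median difference of Severe PE minus Mild PE (log2) of each gene list at left, and the share of its members higher (right of 0) or lower (left of 0) at an unadjusted p under 0.05 at right, with the number of measured genes in brackets and without the sterol list named by the study. Dotted lines are the shares over all genes, 8.04% higher and 9.26% lower. The lists of the translocon, of mucous and serous epithelium and of fat tissue were chosen after values were seen and cannot be judged against these lines.

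The same doses were also compared at 2 h in other rats, and this is the comparison most like the one at 18 h. At 2 h 136 probesets (0.438%) were called, 77 higher and 59 lower in Severe PE. This number was 44 to 55 when any 1 of the 2-h Mild PE rats was left out, 73 when rat 4 of 2-h Severe PE was left out and 346 when rat 1 of that group was. Of these 136, 105 (77.2%) had the same sign at 18 h against 56.6% of all probesets, and 42 (30.9%) had the same sign with an unadjusted p under 0.05 at 18 h against 9.01% of all. Pdia5, an ER enzyme, was 2.65 higher in Severe PE at 2 h. At 18 h it was 7.06, 7.04 and 7.22 in Mild PE rats 1 to 3, 9.35 in Mild PE rat 4, 9.28 to 10.42 in Severe PE and 10.45 to 10.63 in Vehicle, so Mild PE rats 1 to 3 stood apart from Vehicle and Severe PE alike. Ube3al1 had the same form, with 5.12, 5.51 and 5.86 in Mild PE rats 1 to 3, 8.91 in rat 4, 8.66 to 8.97 in Severe PE and 7.01 to 8.61 in Vehicle. Its difference was 3.59 at 2 h and 2.50 at 18 h. In Ephx2 the values were 5.92, 5.47, 5.41 and 8.16 in Mild PE, 8.06 to 9.45 in Severe PE and 6.62 to 9.66 in Vehicle.

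Each 18-h rat was placed on the scale of the 2-h doses, where 0 is the mean of 2-h Mild PE and 1 the mean of 2-h Severe PE, and the median was taken over the 136 probesets. Mild PE rats 1, 2 and 3 were at 0.27, 0.24 and 0.21, and Mild PE rat 4 was at 0.72. The Severe PE rats were at 0.90, 0.81, 0.85 and 0.65. Vehicle rats, which had no microspheres, were at 0.52, 0.70 and 0.67 at 18 h. Mild PE rat 4 was thus within the range of Severe PE on this scale, although its label is that of Mild PE. Its label was kept.

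**Figure D5:**
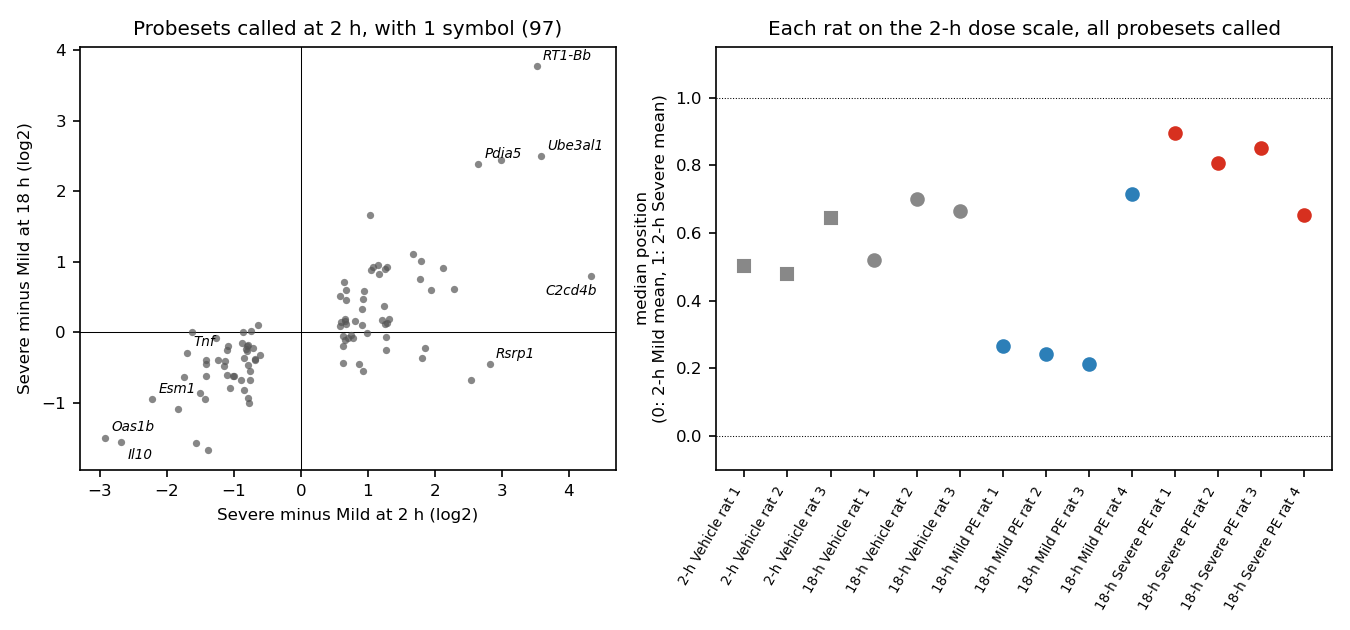
Left, difference of Severe PE minus Mild PE at 18 h (vertical axis) against that at 2 h (horizontal axis), both log2, for the probesets called at 2 h that have 1 gene symbol. Right, median position of each Vehicle and 18-h rat on the scale of the 2-h doses over all 136 probesets, where Mild PE rats 1 to 3 lie at 0.21 to 0.27, Mild PE rat 4 at 0.72 and the Severe PE rats at 0.65 to 0.90.

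The difference between doses was itself different at 18 h and 2 h for 25 probesets (0.0805%). In 8 of them Severe PE gained on Mild PE from 2 h to 18 h, and in 17 it lost. Without the 4 arrays of lowest 5′ signal this number was 167. The inducible cytosolic heat shock proteins were among them. Hspa1a was 1.85 higher in Severe PE at 2 h and had a difference of -0.23 at 18 h, so that the contrast of the times was -2.08 (SE 0.33, adjusted p = 0.0165). Dnajb1, its co-chaperone, went from 1.27 to -0.06 (contrast -1.33, SE 0.15, adjusted p = 0.000808). Rsrp1, a serine- and arginine-rich protein, went from 1.82 to -0.37 (contrast -2.18, SE 0.26, adjusted p = 0.00107). In the other direction, Endod1 had a difference of -0.21 at 2 h and 1.08 at 18 h in 1 of its 2 probesets (contrast 1.29, SE 0.17, adjusted p = 0.00359). Msx1, a homeobox transcription factor, was 8.29, 8.04, 8.75 and 8.27 in Mild PE and 7.37, 7.07, 7.14 and 7.04 in Severe PE at 18 h, while its difference at 2 h was 0.25 (contrast -1.43, SE 0.23, adjusted p = 0.0161). Tnf was 1.69 lower in Severe PE than in Mild PE at 2 h and 0.28 lower at 18 h, and this change with time did not pass the test (adjusted p = 0.218).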

How the data were processed

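Total RNA of rat lung was measured on Affymetrix Rat Genome 230 2.0 arrays, 1 per rat. The authors deposited 1 intensity per probeset on a linear scale, scaled so that the mean of each array with 2% trimmed at either end is about 500.1 (500.147 to 500.181). The methods of the paper describe GC-RMA log2 values instead, so the values here come from another summary of the same arrays. Arrays have no read depth, and the number of rats limits the precision.

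Here 57 control probesets were left out, intensities under 16 were set to 16, and log2 values of all 22 arrays were quantile normalized together. Groups came from the labels. Tests were made with limma 3.58.1 in R 4.3.3 (lmFit and eBayes without a trend) on the 2 groups compared, with Benjamini-Hochberg adjustment over 31042 probesets. The fit was tested on simulated data. Of the probesets 20826 had 1 symbol in the platform annotation, 436 several and 9780 none, and 14217 genes were formed from those with 1 symbol. Per the labels the rats are biological replicates. Same-numbered rats did not deviate together (correlations of -0.09 to -0.01), so the numbers pair nothing.

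The comparison, the 56 gene lists and the 3 lists added after values were seen were chosen with earlier results of these data known. Named genes are the 12 higher and 12 lower of smallest p and the 6 higher and 6 lower of largest difference among genes with non-overlapping rats, a 1.5-fold difference and a mean of at least 7 in the higher group, up to 4 members per list of smallest p, all cholesterol enzymes, and the 6 in each direction of largest difference at 2 h. Others named in the text were chosen after their values were seen. Alternatives were other normalizations, a floor of 64, the probesets above the median signal, a variance trend, the methods' t-test, 1 fit on all 22 arrays, a replicate block and each rat left out. The fit on all 22 arrays for single genes and the list counts without Mild PE rat 4 were added after seeing the data. Some genes are not reported here. Promoters are those of RefSeq (GRCr8).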

Additional observations from a re-analysis of the deposited data

Results flagged for a closer look

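Within a group of 4 rats, 27 of 266 groups checked (133 genes, each in Mild PE and in Severe PE) had 1 rat far from the other 3. These genes were named for their values and share the same rats, so this number cannot be set against chance. In Mild PE, rat 4 was the distant rat in 12 genes. Its log2 signal was 9.32 in Fam111a (other rats 4.49 to 4.84), 9.35 in Pdia5 (7.04 to 7.22), 8.62 in Slc26a4 (6.87 to 7.07), 12.66 in Fetub (11.81 to 11.91), 11.27 in Endod1 (10.44 to 10.56), 13.41 in Fasn (13.18 to 13.21) and 9.01 in Cidea (8.80 to 8.83), above the other rats. It was 9.70 in Fxyd1 (10.53 to 10.69), 12.36 in Ccnd1 (13.02 to 13.11), 12.22 in RT1-Db1 (12.49 to 12.50), 8.55 in Sc5d (8.996 to 9.045) and 4, the floor, in RT1-Bb (7.76 to 8.38), below them. In Fam111a, Pdia5, Slc26a4, Fetub, Endod1, Fasn, Fxyd1 and RT1-Db1 this rat lay on the side of Severe PE, and in Cidea and RT1-Bb it lay on the side away from it. The other Mild PE rats that stood apart were rat 1 in Mki67 at 4.55, rat 2 in Mfsd10 at 5.20 and rat 3 in Cyp51 at 10.33.

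In Severe PE, rat 4 was the distant rat in 5 genes, at 10.35 in Aqp5 (other rats 11.93 to 12.05), 10.92 in Csf1r (11.69 to 11.77), 9.28 in Pdia5, 11.39 in Klf9 and 11.91 in Soat1. Rat 1 was at 12.01 in Abcg1, 10.37 in Hp and 4.75 in Muc5ac, rat 2 at 9.21 in Mvk and 5.41 in Rfx4, and rat 3 at 6.02 in Myl2 and 14.56 in Sftpb. In Muc5ac, Myl2 and Rfx4 the other 3 rats were at the floor.

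The difference between the doses was not the same at 18 h and 2 h in 6 genes of the text (7 probesets), by a test of the contrast of the times. This contrast was -2.18 and -3.27 in the probesets of Rsrp1, -2.08 in Hspa1a, -1.43 in Msx1 and -1.33 in Dnajb1, where the dose difference was more negative at 18 h, and 0.59 in Fasn and 1.29 in a probeset of Endod1, where it was more positive. The other probeset of Endod1 did not pass.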

How the results depend on the processing

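The number of probesets called between the doses at 18 h was 0 on the 8 rats, with the 8 arrays normalized alone, with median centring, with no further normalization, with a variance trend and by the methods' t-test, against 5 with a floor of 64, 19 in the probesets above the median signal and 326 in 1 fit on all 22 arrays. Leaving out 1 rat gave 0 to 80. With an unadjusted p under 0.05 and 1.5-fold, the 1593 probesets became 903 with a floor of 64, 830 in the probesets above the median signal, where fewer were tested, and 1372 by the methods' t-test, and 1447 to 1948 with 1 rat left out. The 2484 probesets without overlap became 3275 to 4177 with 1 rat left out, where fewer rats must be separated. With the replicate number as a block (replicate block), 0 probesets were called at 18 h, 1455 passed the unadjusted rule, and 1 in place of 136 was called at 2 h, and the numbers do not pair the rats. At 2 h, leaving out 1 rat gave 44 to 346 calls. The 25 probesets whose dose difference changed with time became 167 without the 4 arrays of lowest 5′ signal of Gapdh and actin and 15 with median centring, the cause of which was not tested. Among the named genes that were at least 1.5-fold apart or without overlap of the rats, only Hsp90ab1 changed direction, from -0.12 to 0.0430 with median centring. In other named genes 49 values changed sign under an alternative. Genes passed the adjusted test 58 times in the fit on all 22 arrays, 23 times without Mild PE rat 4, once without Severe PE rat 3 and under no other alternative. Over the gene lists, 31 of 59 medians were above 0, and 30 to 37 under the alternatives run. The low number of arrays and signals near the floor limit what can be seen.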

Other observations

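Genes that the comparison of the doses did not turn on, and that were looked at after their values were seen, add to the groups above. Nupr1, a stress-induced nuclear protein, was 9.70, 9.63, 10.01 and 10.90 in Mild PE and 11.60, 11.33, 11.28 and 11.94 in Severe PE (difference 1.48, SE 0.31). Socs2, a feedback inhibitor of growth hormone signalling, was 6.86 to 7.14 in Mild PE and 7.74 to 8.99 in Severe PE (difference 1.36, SE 0.25). Tfrc, the transferrin receptor, was 8.57 to 9.32 in Mild PE, 9.66 to 10.10 in Severe PE and 8.34 to 8.49 in Vehicle (difference 0.87, SE 0.18). C4bpa, an inhibitor of the complement cascade, was 10.49, 10.24, 10.29 and 11.79 in Mild PE and 12.10, 11.88, 11.71 and 12.16 in Severe PE, so that Mild PE rat 4 overlapped with Severe PE.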
